A study of Mus musculus with 146 samples.

Results

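The 36 macrophage cultures with the highest and the 36 with the lowest RNA levels of 5 immediate early genes were compared, out of 146 cultures in all. The cultures were chosen by measured values. Raw counts were turned into log2(CPM + 1), where CPM is the count of a gene scaled to a common library total, the mean of each library plate was subtracted for each gene, the result was scaled over the 146 libraries, and the values of Fos, Egr1, Dusp1, Ier2 and Junb were averaged into a score. The groups are called high and low here, and the 74 libraries between them the middle libraries. They are not treatments: per the labels every culture was untreated.

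Each library held the polyadenylated RNA of the bone marrow-derived macrophages of 1 mouse of the outbred CFW stock (Crl:CFW(SW)-US_P08), aged 16 weeks. Marrow cells had been grown for 5 days in medium conditioned by L929 fibroblasts, which release the macrophage growth factor CSF1. The labels give the sex of the mouse, the plate and lane of the library, and a collection date. High, low and middle cultures share the stock, age, culture and absence of treatment.

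Immediate early genes are transcribed within minutes of a stimulus from factors already present in the cell, without new protein synthesis. Serum response factor with its ternary complex partners, CREB and NF-kB drive many of them, and MAP kinases carry the signal. Their products include transcription factors of the AP-1, EGR, NR4A and KLF families, together with phosphatases and RNA-binding proteins that end the response. Most of their mRNAs decay quickly, and in macrophages the same stimuli induce chemokines and NF-kB feedback inhibitors.

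The score genes are described first, without a test, since they chose the libraries. Junb, an AP-1 subunit, had 49.2, 69.9 and 94.1 CPM (lowest, median and highest) in the low group and 72.4, 116.5 and 194.7 CPM in the high group. Dusp1, a phosphatase that inactivates MAP kinases, had 4.97, 8.79 and 16.5 CPM against 8.54, 18.3 and 54.1 CPM. Egr1, a zinc finger transcription factor, had 2.68, 6.35 and 12.4 CPM against 4.68, 11.8 and 23.6 CPM. For Junb 34 of the 36 high libraries lay above the highest low library, for Dusp1 20 and for Egr1 14, so the groups overlapped for each of them. Ier2, a short-lived nuclear regulator, had 18.8, 23.8 and 28.8 CPM against 20.97, 30.4 and 49 CPM, with 26 high libraries above the highest low one. The scores of the high group ran from 0.3635 to 2.19 and those of the low group from -1.428 to -0.4315, and the nearest libraries outside the groups had 0.3508 and -0.4294.

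Fos, the AP-1 subunit that most often stands for this gene class, did not vary with the other score genes. It had 10.6, 17.2 and 30.7 CPM in the low group and 13.1, 20.7 and 39.97 CPM in the high group, and only 4 high libraries lay above the highest low one. Over the 146 plate-centred libraries the Pearson correlation of Fos was -0.19 with Egr1, 0.16 with Dusp1, -0.08 with Ier2 and 0.06 with Junb, whereas the pairs among the other 4 genes ranged from 0.26 to 0.55. When the groups were chosen by the other 4 genes, Fos had medians of 19.1 CPM in the high and 21.1 CPM in the low group and a fitted log2 difference of 0.01. The same exercise left Egr1 higher by 0.65, Dusp1 by 1.02, Ier2 by 0.32 and Junb by 0.61. The label of the groups thus holds for 4 of the 5 genes, and the groups are best read as high or low in Egr1, Dusp1, Ier2 and Junb. These correlations are descriptions over libraries that share plates and dates.

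**Figure D1:**
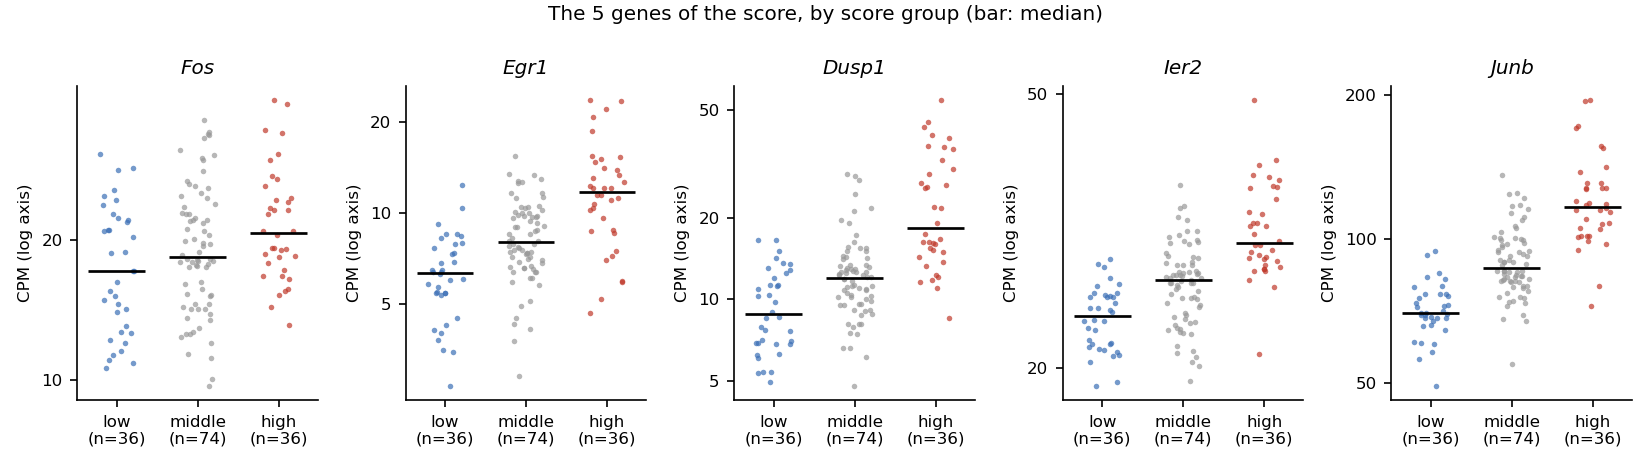
CPM of the 5 score genes (log axes) in the 36 low, 74 middle and 36 high libraries, each point a library and each bar a median. Junb separates the groups almost fully, with 34 high libraries above the highest low one, while Fos overlaps over most of its range, with 4.

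The groups were alike in most properties of the libraries. Total counts ran from 19.4 to 84.1 M in the low group (median 41.3) and from 14.5 to 120.9 M in the high group (median 41.3), and each group held 21 libraries labelled female and 15 labelled male. Depth, the share of the 10 most abundant genes, the number of genes detected and the share of females gave adjusted p from 0.727 to 0.809 (permutation test within plates, two-sided, 4 properties). High libraries sat on 6 of the 7 plates and low libraries on all 7. Collection date was less even: 9 of the 28 date labels held both groups, 8 held high and no low libraries, 7 held low and no high ones, and 37.7% of the variance of the score lay between dates. For 6 libraries, 2 high, 3 low and 1 middle, counts of Y-linked genes went against the labelled sex. No 2 libraries held identical values.

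Macrophage markers were abundant in both groups. The summed level of 8 macrophage markers had medians of 15540 CPM in the low and 15420 CPM in the high group, with ranges of 11760 to 21110 and 12110 to 25420 CPM. Csf1r, the receptor for CSF1, had medians of 1697 and 1700 CPM, Cd68, a lysosomal glycoprotein, 1730 and 1759 CPM, and Lyz2, lysozyme, 9685 and 9446 CPM. None of these 3 genes passed the test of edgeR (adjusted p of 0.396, 0.0711 and 0.998). Of the 8 markers 2 did pass, Cd14 and Itgam, higher in the high group by 0.47 and 0.29 on the log2 scale.

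With plate as a covariate, 3424 of 13403 genes tested differed between the groups at an adjusted p under 0.05 (edgeR's quasi-likelihood test, Benjamini-Hochberg), or 25.5%. All 5 score genes are among them, which leaves 3419 others. Of the 3424, 1822 were higher in the high group (13.6% of the genes tested) and 1602 lower (12.0%). These shares of all genes are the ones to set beside the counts of list members below. Most differences were small: the median absolute log2 difference of the genes called was 0.18, 319 were higher and 56 lower by more than 1.5-fold, and 97 were higher and 33 lower by more than 2-fold. The score comes from the RNA of these same libraries, so a call says that a gene varies with the score among untreated cultures. Without plate 2 the count was 1796 and without plate 8 it was 1352, the former with 16 and the latter with 15 of the 72 libraries left out. With the collection date in place of plate it was 2485, and without the libraries against their sex label 2510.

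Of the other AP-1 subunits, 4 of 8 tested were higher and 1 was lower, with a median log2 difference of 0.34 beside -0.00 over all genes tested. Fosb, a close relative of Fos, had 0.558, 3.98 and 22.9 CPM in the low group and 3.07, 13.4 and 88.7 CPM in the high group, with 33 of 36 high libraries above the low median. Its log2 difference was 1.60 ± 0.31 (SE, adjusted p = 0.000119), but 0.68 with an adjusted p of 0.106 when date replaced plate. Fosl2 rose from a median of 47.1 to 58.8 CPM, a log2 difference of 0.42 ± 0.07 (adjusted p = 1.25e-05). Fosl1 (0.88) and Jund (0.49) were higher too, but 56.9% and 48.5% of their 50-base stretches occur in other annotated genes, so their counts are uncertain. Jun, the usual partner of Fos, gave 0.11 and Atf3 0.26 without passing, and Batf, an AP-1 factor of lymphoid and dendritic cells, was lower by -0.22 ± 0.08 (adjusted p = 0.0306), a call lost without plate 2 and without plate 8.

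Nearly all tested members of a list of other Egr, Nr4a and Klf factors were higher. The list does not hold every member of these families: Klf1, which stands on the erythroid list, gave 0.14 without passing. Of 12 list members tested, 11 were higher (91.7%, beside 13.6% of all genes), with a median of 0.46. Within the list only the corepressor Nab1 (-0.06) did not pass. Klf10, a repressor induced by TGF-beta, had 57.8, 76.4 and 103.9 CPM in the low and 72.3, 99.8 and 259.5 CPM in the high group, with 16 high libraries above every low one (0.49 ± 0.08, adjusted p = 9.38e-06). Klf4, which takes part in monocyte differentiation, rose from a median of 18.99 to 25.3 CPM (0.55 ± 0.09) and Klf9, a glucocorticoid- and thyroid hormone-responsive factor, from 29.5 to 42.3 CPM (0.60 ± 0.12). Egr3 rose from 1.75 to 3.19 CPM (0.85 ± 0.17, adjusted p = 0.00017), Egr2 by 0.68 and the orphan nuclear receptors Nr4a1, Nr4a2 and Nr4a3 by 0.44, 0.42 and 1.40. Klf2 and Klf6 were higher by 0.27 and 0.16. Of the 11 higher members 8 passed again without plate 2, 8 without plate 8 and 9 with date in place of plate. Egr2 and Klf2 lost their calls without either plate, Nr4a2 without plate 8, Klf6 without plate 2 and with date, and Nr4a1 with date.

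Among 33 other immediate early regulators 22 were higher (66.7%, beside 13.6% of all genes) and the other 11 did not pass, with a median of 0.44. Maff, a small MAF transcription factor, had 3.79, 6.27 and 10.1 CPM in the low group and 6.39, 9.59 and 16.1 CPM in the high group, and all 36 high libraries lay above the low median (0.54 ± 0.06, adjusted p = 5.54e-09). Csrnp1, a nuclear protein induced by AXIN1, rose from a median of 7.92 to 11.2 CPM (0.57 ± 0.07, adjusted p = 2.92e-09). Ppp1r15a, which directs dephosphorylation of the translation factor eIF2alpha, rose from 18.3 to 26.7 CPM (0.64 ± 0.08). The ranges of the groups overlapped for each of these, with 13, 10 and 17 high libraries above the highest low one. Mafk (0.44), Trib1, a pseudokinase that targets C/EBP factors for degradation (0.63), the 3 stress proteins Gadd45a, Gadd45b and Gadd45g (0.65, 0.67 and 0.47), Plk2 (0.76), Hbegf, a growth factor of the EGF family (0.84), and Ier5 (0.23) passed as well, as did Phlda1 (0.75), whose counts are uncertain because 32.9% of its sequence is shared. Myc (0.03), Sgk1 (0.09), Id1 (0.12), Ccn1 (-0.16) and Ccn2 (-0.48) did not pass. Of the 22 higher members 19 passed again without plate 2, 20 without plate 8 and 20 with date in place of plate. Hbegf lost its call in each of these, Mcl1 without either plate, and Errfi1 without plate 2 and with date.

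**Figure D2:**
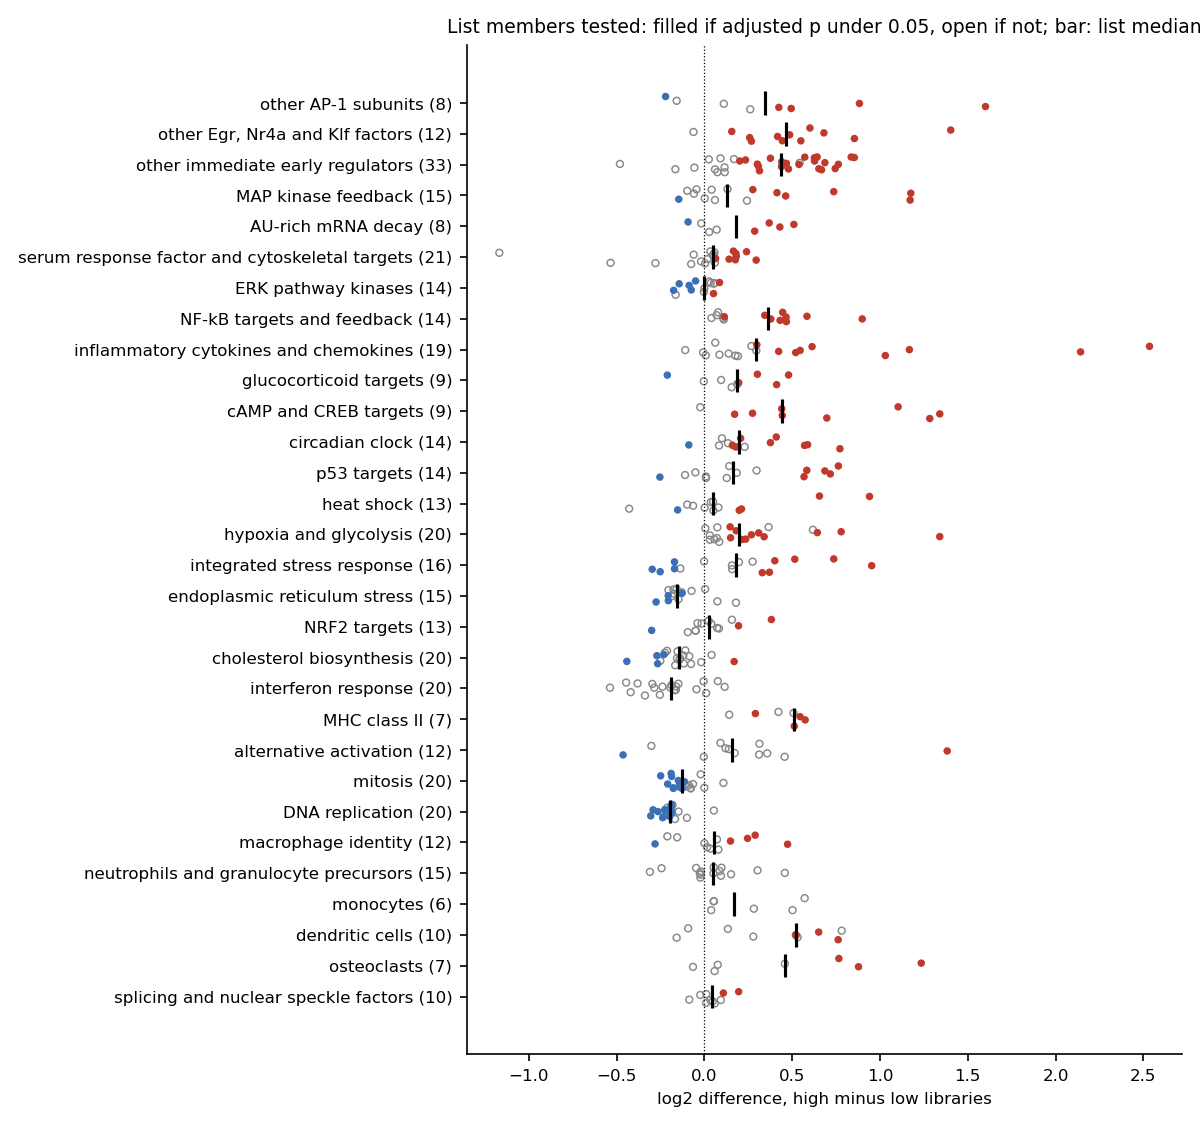
Fitted log2 difference (high minus low) of the tested members of 30 lists, filled where the adjusted p is under 0.05 (red higher, blue lower), open otherwise, with the list median as a bar and the number tested in brackets. The immediate early, NF-kB and cAMP lists lie to the right of 0, and the mitosis and DNA replication lists to its left within about 0.3.

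Genes that end the response moved in part. Of 15 MAP kinase phosphatases and Sprouty or Spred proteins, 6 were higher and 1 lower, with a median of 0.13. Dusp5, a nuclear phosphatase for ERK, had 5.83, 11.0 and 22.0 CPM in the low group and 7.92, 22.8 and 62.4 CPM in the high group, with 21 high libraries above every low one. Its log2 difference was 1.17 ± 0.14 (adjusted p = 4.5e-09), next to 1.18 for Dusp8. The counts of Dusp5 are uncertain because 20.4% of its sequence is shared with other genes. Dusp14 (0.74), Dusp2 (0.46), Dusp10 (0.41) and Dusp16 (0.28) followed, the calls of Dusp2 and Dusp14 being lost without plate 8 and that of Dusp14 with date as well. Dusp4 (0.04) and Dusp6, the cytosolic ERK phosphatase (-0.10), did not pass, and Spry2, a feedback inhibitor of receptor tyrosine kinases, was lower (-0.15 ± 0.05, adjusted p = 0.0366), a call lost when plate 2, 7 or 10 was left out. The list of AU-rich mRNA decay also held genes that do not act on such elements, among them Tnfaip3. Of its 8 members 4 were higher and 1 lower. Zfp36, tristetraprolin, which destabilises cytokine mRNAs, had 22.8, 29.5 and 39.1 CPM in the low and 27.02, 40.8 and 60.4 CPM in the high group (0.51 ± 0.06, adjusted p = 3.71e-10). The endonuclease Zc3h12a (regnase-1) rose from a median of 17.2 to 22.7 CPM (0.43 ± 0.05), Zfp36l2 by 0.29 and Tnfaip3, the A20 deubiquitinase, by 0.37, the last not without plate 2. Elavl1 (HuR), which stabilises mRNAs with AU-rich elements, was lower by -0.09 ± 0.02 (adjusted p = 0.00262).

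Since these members moved together, their promoters were searched for the binding motifs of 2 factors named above, and the stretches upstream of the start that carry them are printed to show what such sites look like. The motifs were the CArG box of serum response factor and the full cAMP response element bound by CREB, TGACGTCA, over the 250 bases before each start in the RefSeq table (GRCm38.p6), on both strands. Capitals mark the motif. Dusp5 held 2 adjoining CArG boxes at chr19:53529053-53529112 (plus strand), Srf, the factor's own gene, 2 at chr17:46556195-46556254 (minus strand), and Zfp36 1 at chr7:28379237-28379296 (minus strand). The response element lay in the promoters of Dusp1 at chr17:26508566-26508625 (minus), Maff at chr15:79347460-79347519 (plus), Ppp1r15a at chr7:45526269-45526328 (minus) and, with 2 copies, Dusp8 at chr7:142095330-142095401 (minus).
Dusp5: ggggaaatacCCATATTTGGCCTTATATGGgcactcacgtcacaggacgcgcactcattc
Srf: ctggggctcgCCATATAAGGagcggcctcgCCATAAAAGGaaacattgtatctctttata
Zfp36: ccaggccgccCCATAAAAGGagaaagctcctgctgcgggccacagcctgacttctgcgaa
Dusp1: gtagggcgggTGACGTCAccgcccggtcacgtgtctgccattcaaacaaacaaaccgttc
Maff: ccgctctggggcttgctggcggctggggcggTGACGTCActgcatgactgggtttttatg
Ppp1r15a: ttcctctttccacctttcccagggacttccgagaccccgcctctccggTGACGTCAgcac
Dusp8: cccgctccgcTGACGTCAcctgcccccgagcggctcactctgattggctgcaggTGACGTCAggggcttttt
Of 60 tested members of the immediate early lists with a start in the table, 3 held a CArG box (5%) and 6 the response element (10%). Over the 10317 tested genes with a start the shares were 1.40% and 2.93%, over the 1446 higher genes 1.80% and 3.32%, and over all 32851 starts 1.47% and 1.55%. Of the 60, Dusp5, Zfp36 and Egr2 held the CArG box, and Maff, Ppp1r15a, Dusp8, Btg2, Errfi1 and Plk2 the response element. Srf, of another list, and Dusp1, of the score, are not among the 60. The score genes Fos and Junb held neither motif in this window, and Egr1 and Ier2 had no start in the table. A match describes letters in a window, and no binding was measured.

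Serum response factor targets and ERK pathway components differed by small amounts. Of 21 serum response factor and cytoskeletal targets 8 were higher (38.1%, beside 13.6% of all genes), with a median of 0.05, led by Srf itself (median 46.1 to 53.5 CPM, 0.24 ± 0.04, adjusted p = 2.77e-05) and Zyx, zyxin of focal adhesions (0.30). Actb (0.00), Tagln (-0.53) and Acta2 (-0.28) did not pass. Without plate 8 the list held 3 higher members and without plate 2 it held 4. Of 14 kinases, GTPases and adaptors of the ERK pathway 2 were higher and 5 lower (35.7%, beside 12.0% of all genes), all 7 within 0.18 of 0, with a median of -0.00. Of these 7, 3 passed again without plate 2, 1 without plate 8 and 3 with date. Nras, a small GTPase, was lower by -0.07 ± 0.02 (adjusted p = 0.00452), a call lost without plate 8, and the adaptor Grb2 was higher by 0.09 ± 0.03 (adjusted p = 0.0318), a call lost when plate 2, 3, 7 or 8 was left out. Mapk3, ERK1, gave 0.05 without passing.

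NF-kB targets and feedback genes were higher in 9 of 14 cases (64.3%, beside 13.6% of all genes) and the other 5 did not pass (median 0.36). Relb, a subunit of the non-canonical pathway, had 7.00, 10.3 and 15.9 CPM in the low group and 10.7, 15.7 and 32.2 CPM in the high group, and all 36 high libraries lay above the low median, 18 of them above the highest low library (0.58 ± 0.07, adjusted p = 8.74e-09). Bcl3, a nuclear IkB protein, rose from a median of 15.5 to 21.04 CPM (0.47 ± 0.06), Nfkbia, which holds NF-kB in the cytoplasm, from 77.1 to 98.6 CPM (0.43 ± 0.06) and Nfkb2 from 32.6 to 42.5 CPM (0.38 ± 0.05). Nfkbie, Nfkbiz, Birc3 and Traf1 were higher by 0.47, 0.45, 0.34 and 0.90, with Traf1 losing its call with date, whereas Rel (0.04), Nfkb1 (0.08) and Icam1 (0.11) did not pass. The list held 8 higher members without plate 2 and 8 without plate 8.

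Cytokines split into those that moved and those that did not. Of 19 tested, 9 were higher (47.4%, beside 13.6% of all genes) and the other 10 did not pass (median 0.30). Cxcl2, a chemokine that attracts neutrophils, had 0.631, 1.48 and 13.1 CPM in the low group and 1.75, 4.44 and 40.2 CPM in the high group, and all 36 high libraries lay above the low median (2.14 ± 0.29, adjusted p = 1.89e-07). Only 5 lay above the highest low library, since 1 low library reached 13.1 CPM. Its neighbour in function Cxcl1 (2.53 ± 0.40, medians of 0.148 and 0.442 CPM) and Cxcl3 (1.17) were higher too, all at low levels. Osm, oncostatin M, rose from a median of 10.4 to 16.0 CPM (0.61 ± 0.08, adjusted p = 2.13e-07), Il1b by 1.03, its antagonist Il1rn by 0.55 (lost without plate 2 and without plate 8), Tnf by 0.52 (lost with date) and Nlrp3, the inflammasome sensor, from 88.3 to 108.7 CPM (0.42 ± 0.07). Ccl2 (-0.01), Ptgs2 (0.01), Il1a (0.06), Cxcl10 (0.19), Ccl3 (0.27) and Ccl4 (0.18) did not pass. Cxcl2 kept an adjusted p of 0.000777 with date in place of plate, 1.29e-05 without plate 2 and 8.76e-05 without plate 8.

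**Figure D3:**
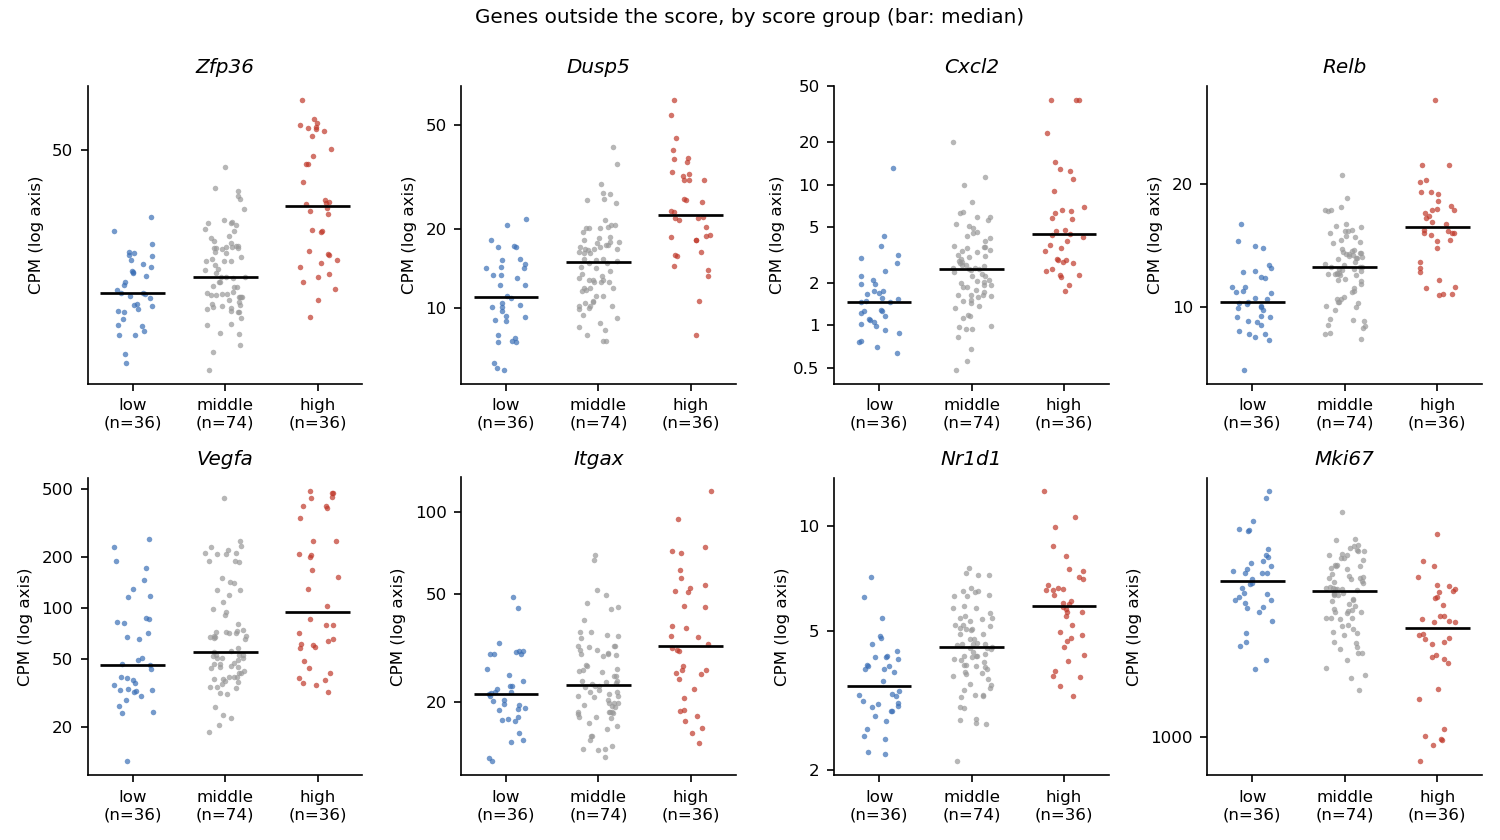
CPM (log axes) of 8 genes outside the score in the 36 low, 74 middle and 36 high libraries, each point a library and each bar a median. The groups overlap for every gene, and Relb and Cxcl2 are the 2 of these genes for which all 36 high libraries lie above the low median.

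Targets of other signalling routes to immediate early genes were examined next. Of 9 cAMP and CREB targets 8 were higher (88.9%, beside 13.6% of all genes), with a median of 0.44. Pde4b, a phosphodiesterase that degrades cAMP, was among them (median 6.84 to 9.84 CPM, 0.70 ± 0.12). Sik1, a kinase that restrains CREB coactivators, was another (20.3 to 26.9 CPM, 0.44 ± 0.09). Without plate 8 the list held 4 higher members and with date 4. Vegfa, vascular endothelial growth factor, which also stands on the hypoxia list, had 12.5, 46.2 and 253.7 CPM in the low and 31.9, 94.0 and 486.2 CPM in the high group (1.34 ± 0.27, adjusted p = 0.000278). It was higher in the high group on 5 of the 6 plates that hold both groups and lower on plate 10 (mean difference of -0.58 in log2(CPM + 1)). Of 9 glucocorticoid targets 4 were higher (44.4%, beside 13.6% of all genes) and 1 lower (11.1%, beside 12.0%). The lower one was Fkbp5, a sensitive target of the receptor (-0.21 ± 0.06, adjusted p = 0.00451), a call lost without plate 2 and without plate 8. Without plate 2 that list held no member past the threshold with edgeR, with 3 at an unadjusted p under 0.05 and a median of 0.16.

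Of 14 circadian clock genes 9 were higher (64.3%, beside 13.6% of all genes) and 1 was lower (7.14%, beside 12.0%). The lower one was Clock (-0.09), and the median was 0.20. Nr1d1, the repressor REV-ERBalpha, had 2.22, 3.48 and 7.15 CPM in the low and 3.25, 5.90 and 12.6 CPM in the high group (0.77 ± 0.10, adjusted p = 9.63e-08). Dbp, a clock output factor, rose from a median of 7.58 to 11.0 CPM (0.59 ± 0.12), Per2 from 5.30 to 7.60 CPM (0.57 ± 0.11) and Per1 from 11.9 to 14.3 CPM (0.38 ± 0.08). Arntl, which cycles in antiphase to Nr1d1 in tissues, was higher by 0.19. Hour of harvest was not analysed here. Of the 10 called genes 3 passed again with date in place of plate and 5 without plate 8; Per2 was lost with date and Arntl and Clock with either.

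Stress programmes differed in how far their members moved together. Of 20 hypoxia and glycolysis genes 11 were higher and the other 9 did not pass (median 0.20), including Egln3, an oxygen-sensing prolyl hydroxylase (median 33.7 to 46.3 CPM, 0.64 ± 0.15), Ndrg1 (0.78, lost without plate 8) and Aldoa, aldolase A (2011 to 2360 CPM, 0.22 ± 0.04). Hk2 (0.08), Ldha (0.06) and Pfkl (0.01) did not pass, and the list held 7 higher members without plate 2 and 6 without plate 8. Of 14 p53 targets 5 were higher (35.7%, beside 13.6% of all genes) and 1 lower (7.14%, beside 12.0%). Among the higher ones were Mdm2, the ligase that degrades p53 (205.1 to 271.5 CPM, 0.57 ± 0.09, adjusted p = 6.65e-06), and Bbc3, the death factor PUMA (6.45 to 8.53 CPM, 0.72 ± 0.11). Btg2, an antiproliferative factor that stands on the immediate early list as well, was another (0.69 ± 0.12). Cdkn1a (0.18), Bax (0.01) and Ccng1 (-0.05) did not pass and Sesn1 was lower (-0.25 ± 0.05).

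In the integrated stress response 6 of 16 genes were higher (37.5%, beside 13.6% of all genes) and 4 lower (25.0%, beside 12.0%). They fell into different roles. The transcription factors Cebpb (median 75.3 to 101.0 CPM, 0.51 ± 0.06, adjusted p = 3.71e-10), Atf4 (236.5 to 296.8 CPM, 0.33 ± 0.08) and Ddit3 (0.40) were higher, with the targets Chac1 (0.74) and Sesn2 (0.37). Vldlr (0.95) was the other higher member. Chac1 lost its call without plate 2 and with date, Ddit3 without plate 8 and with date, and Vldlr without plate 2 and without plate 8. The serine and asparagine synthesis enzymes Phgdh, Psat1, Shmt2 and Asns were lower by -0.30, -0.17, -0.25 and -0.17. Psat1 and Asns lost their calls without plate 2, without plate 8 and with date. Shmt2 lost its call without plate 2 and without plate 8, and Phgdh without plate 2 and with date. Without plate 2 the 4 members past the threshold were all higher, with 3 lower at an unadjusted p under 0.05. Of 13 heat shock genes 4 were higher (30.8%, beside 13.6% of all genes) and 1 lower (7.69%, beside 12.0%), with a median of 0.05. The largest rises were those of Hspa1a and Hspa1b (0.94 and 0.66), near-identical copies whose reads cannot be told apart. Of 15 endoplasmic reticulum chaperone and stress genes 4 were lower (26.7%, beside 12.0% of all genes), with a median of -0.16. Pdia4 was among them (-0.27 ± 0.10, adjusted p = 0.0294). Without plate 2 and without plate 8 no member of that list passed with edgeR, with 3 and 1 lower at an unadjusted p under 0.05, while with date in place of plate 8 were lower.

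Surface and effector genes of macrophages were part of the pattern. Cd14, the co-receptor for lipopolysaccharide, had 292.7, 445.5 and 627.4 CPM in the low and 423.4, 589.7 and 858.1 CPM in the high group, with 34 of 36 high libraries above the low median (0.47 ± 0.07, adjusted p = 9.48e-07). Of 12 macrophage identity genes 4 were higher (33.3%, beside 13.6% of all genes), among them Cd14, Itgam and Spi1. The transcription factor Maf was the 1 lower gene (-0.28 ± 0.09), or 8.33% beside 12.0% of all genes. Itgam and Spi1 lost their calls without plate 8, Itgam also without plate 2, and Maf without plate 10 and with date. Of 7 MHC class II genes 4 were higher (57.1%, beside 13.6% of all genes, median 0.51), and 2 without plate 2. Among the 4 were Cd74, the invariant chain (114.2 to 173.7 CPM, 0.51 ± 0.12), and H2-Ab1 (16.4 to 23.0 CPM, 0.55 ± 0.14). Of 12 genes listed under alternative activation 1 was higher and 1 lower (8.33% each, beside 13.6% and 12.0% of all genes). Arg1, arginase, was higher at the edge of the threshold (0.172, 15.9 and 224.9 CPM against 0.605, 40.9 and 434.2 CPM, 1.38 ± 0.54, adjusted p = 0.0497). The transferrin receptor Tfrc was lower (median 198.3 to 138.1 CPM, -0.46 ± 0.13, adjusted p = 0.00674). Arg1 lost its call when plate 2, 3 or 8 was left out, and Tfrc without plate 8 (-0.26, adjusted p = 0.213).

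Some of the largest rises had a wide range in both groups. Itgb3, the integrin beta 3 chain, had 7.17, 18.1 and 106.6 CPM in the low and 5.71, 43.9 and 175.5 CPM in the high group (1.10 ± 0.27, adjusted p = 0.0018). Thbs1, thrombospondin 1, rose from a median of 43.2 to 89.6 CPM (1.10 ± 0.30), Sdc1, syndecan 1, from 20.02 to 32.7 CPM (1.17 ± 0.29), and Tgfb3, a TGF-beta ligand, from 3.31 to 6.69 CPM (1.296 ± 0.262). Thbs1 and Sdc1 lost their calls without plate 8 (adjusted p of 0.112 and 0.0884). H2-Q6, an MHC class I gene with 34.3% shared sequence, was higher by 1.42 ± 0.24 and is uncertain. Mecom had the largest fitted value (3.02 ± 1.09, adjusted p = 0.0333) but a median of 0 CPM in the low and 0.0276 CPM in the high group, and only 2 high libraries lay above the highest low one.

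A few regulators outside the lists, chosen after their values were seen, also followed the score. Sertad1, a transcriptional coregulator, had 22.3, 31.96 and 44.95 CPM in the low and 27.5, 48.4 and 99.2 CPM in the high group, with 22 high libraries above every low one (0.61 ± 0.07, adjusted p = 1.11e-08). Arid5a, which stabilises Il6 mRNA and opposes regnase-1, rose from a median of 11.5 to 18.7 CPM (0.75 ± 0.10), the kinase gene Pim1 from 34.7 to 49.3 CPM (0.57 ± 0.08) and Creb5 from 21.7 to 31.99 CPM (0.70 ± 0.10).

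Genes that were lower formed small differences over many members. Of 20 mitosis genes 12 were lower and the other 8 did not pass, with a median of -0.13. Mki67, a marker of cycling cells, had 1188, 1491 and 1876 CPM in the low and 938.7, 1320 and 1680 CPM in the high group, with 4 of 36 high libraries above the low median (-0.18 ± 0.04, adjusted p = 0.000754). Kif11, a spindle motor, fell from a median of 170.4 to 148.1 CPM (-0.19 ± 0.03) and cyclin A2, Ccna2, from 297.9 to 255.8 CPM (-0.19 ± 0.04). Of 20 DNA replication genes 12 were lower as well (median -0.20), among them Cdc45 (-0.23) and Mcm4 (-0.21). These counts moved with single plates and with date. The mitosis list held 7 lower members without plate 2, 4 without plate 8 and 1 with date in place of plate. The DNA replication list held 1 without plate 2, 13 with date and 3 without the libraries against their sex label. Without plate 8 none of its members passed with edgeR, with 3 lower at an unadjusted p under 0.05 and a median of -0.12.

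Among genes with a mean log2 CPM of 1 or more, the largest fall named was -0.67 on the log2 scale. Mbnl3, a splicing regulator on the X chromosome, had 7.34, 10.9 and 18.9 CPM in the low and 3.58, 7.41 and 12.9 CPM in the high group, with 7 high libraries above the low median (-0.58 ± 0.09, adjusted p = 6.15e-06). Il1rl2, the receptor for interleukin 36, fell from a median of 6.22 to 3.96 CPM (-0.55 ± 0.12, adjusted p = 0.000368) and B3galt5, a galactosyltransferase, from 4.45 to 2.57 CPM (-0.67 ± 0.20). Both Mbnl3 and Il1rl2 kept their calls when plate 2 or plate 8 was left out and when date replaced plate, and B3galt5 lost its call without plate 2 and with date. Of 20 cholesterol synthesis genes 4 were lower and 1 higher, beside 12.0% lower and 13.6% higher of all genes. Whether this list differs from all genes was not tested. Among the lower ones were Hmgcs1 (-0.27) and Idi1 (-0.44, uncertain with 22.2% shared sequence). Without plate 2 1 member was lower and without plate 8 1, in both cases Idi1. None of 20 interferon response genes passed with edgeR or with limma voom, and none had an unadjusted p under 0.05 with edgeR, with a median of -0.19. When the groups were chosen without Fos, edgeR called 4 of the 20 lower, with a median of -0.28.

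Markers of other cell types ranged from abundant to nearly undetected. The sum of 11 neutrophil and granulocyte precursor markers had medians of 401.9 CPM (133.0 to 979.5) in the low and 345.4 CPM (142.9 to 1177) in the high group, and none of 15 list members passed with edgeR or limma voom with plate as covariate (1 at an unadjusted p under 0.05 with edgeR). With date in place of plate 4 of the 15 were higher with edgeR and 9 at an unadjusted p under 0.05, with a median of 0.50, and the part of these cells in the results was not tested. The sum of 4 monocyte markers had medians of 1432 (658.6 to 4292) and 2233 CPM (530.5 to 4025), and none of 6 members passed with either tool or at an unadjusted p under 0.05. The sum of 7 dendritic cell markers had medians of 26.7 (16.1 to 56.5) and 40.1 CPM (17.6 to 127.2). Of 10 list members 3 were higher (30.0%, beside 13.6% of all genes). They were Itgax, the integrin CD11c (21.4 to 32.1 CPM, 0.76 ± 0.16, adjusted p = 0.000385), Flt3 and Clec9a. Macrophages carry Itgax as well, and Clec9a (medians of 0.676 and 1.03 CPM) and Flt3 (1.94 and 3.04 CPM) lost their calls without plate 2 and without plate 8. In bulk RNA, more cells of a type and more RNA per cell cannot be told apart.

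Of the osteoclast list, the fusion proteins Ocstamp (median 0.486 to 1.28 CPM, 1.23 ± 0.22) and Dcstamp (1.60 to 3.09 CPM, 0.88 ± 0.26) and the proton pump subunit Atp6v0d2 (18.8 to 30.1 CPM, 0.77 ± 0.28) were higher, while Acp5 and Ctsk, the phosphatase and protease of mature osteoclasts, gave 0.08 and 0.06 without passing and Calcr had a median of 0 in both groups. Dcstamp and Atp6v0d2 lost their calls without plate 2 and without plate 8. The sum of 4 osteoclast markers had medians of 44.3 (28.4 to 67.9) and 45.8 CPM (29.9 to 93.5). Stromal markers summed to medians of 5.76 CPM (0.161 to 67.9) in the low and 2.55 CPM (0.0994 to 28.2) in the high group. Of 8 list members 1, Pdgfra, was lower (12.5%, beside 12.0% of all genes). B cell markers summed to medians of 2.47 CPM (0.813 to 7.16) and 2.48 CPM (0.790 to 9.45), and Cd79a and Ms4a1 were higher at medians under 0.1 CPM. Both calls were lost without plate 2 and without plate 8, as was that of Pdgfra without plate 8. With date in place of plate 4 of 4 B cell genes tested were higher (median 2.84). In that setting 4 of 7 osteoclast genes (median 0.90) and 3 of 6 mast cell and basophil genes (median 0.73) were higher too. T and NK cell markers summed to 2.65 (1.44 to 7.51) and 2.69 CPM (0.616 to 8.19), with Ncr1 at a median of 0. Megakaryocyte, erythroid and mast cell markers had medians of 56.4 and 63.8, 0.221 and 0.146, and 0.361 and 0.307 CPM in the low and high groups. Single members moved in these lists, Klrb1c of NK cells higher by 1.37, Hbb-bs, a beta globin, lower by -1.37 and Gata2 of mast cells higher by 0.51, at medians of at most 1.01 CPM. Klrb1c lost its call without plate 2 and with date, Hbb-bs without plate 8 and with date, and Gata2 without either plate. The part of other cells in the differences above was not tested. With the level of granulocyte precursors as a covariate 4023 genes passed.

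The 74 middle libraries were used in neither group and gave a second look at the same relation, within a narrower range of scores. The slope of each gene on the score was fitted with plate as a covariate and expressed per gap between the mean scores of the high and low groups. There 102 of 12753 genes passed (0.800%), 24 with a positive slope (0.188%) and 78 with a negative one. 1 gene of the 102 was Egr1, which is part of the score. Of the other 101, 73 had also been called between the groups, all 73 in the same direction. No member of the 4 lists shown in the plot of middle slopes passed with edgeR. At an unadjusted p under 0.05 edgeR gave a positive slope for 1 of 8 AP-1 subunits, 1 of 12 Egr, Nr4a and Klf factors, 5 of 33 immediate early regulators and 5 of 14 NF-kB genes, and limma voom called 1 NF-kB gene. The direction was mostly kept in these lists: 7 of 8 AP-1 subunits, 11 of 12 Egr, Nr4a and Klf factors, 28 of 33 regulators and 13 of 14 NF-kB genes had a positive slope, beside 49.1% of all genes. Median slopes of these lists were 0.33, 0.46, 0.32 and 0.39, beside -0.01 over all genes. Positive slopes were not particular to these lists. They were found for 13 of 15 granulocyte precursor, 5 of 6 monocyte and 9 of 10 dendritic cell genes. Medians there were 0.75, 1.09 and 0.91. Hypoxia and glycolysis genes had a positive slope in 18 of 20 cases, and stromal genes in 0 of 8. Other lists turned. Interferon response genes had a median of -0.19 between the groups but a positive slope for 20 of 20 (median 1.13, 2 at an unadjusted p under 0.05 and none called), p53 targets had 0.16 against -0.21 (5 of 14 positive), and the integrated stress response 0.18 against -0.02 (7 of 16 positive). Mitosis genes had a median slope of -0.02 (9 of 20 positive) and DNA replication genes -0.16 (2 of 20 positive). For single genes the slopes were 0.43 for Zfp36, 0.47 for Relb, 1.26 for Dusp5, 2.17 for Cxcl2 and 0.05 for Ppp1r15a, and Fos itself had -0.18.

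**Figure D4:**
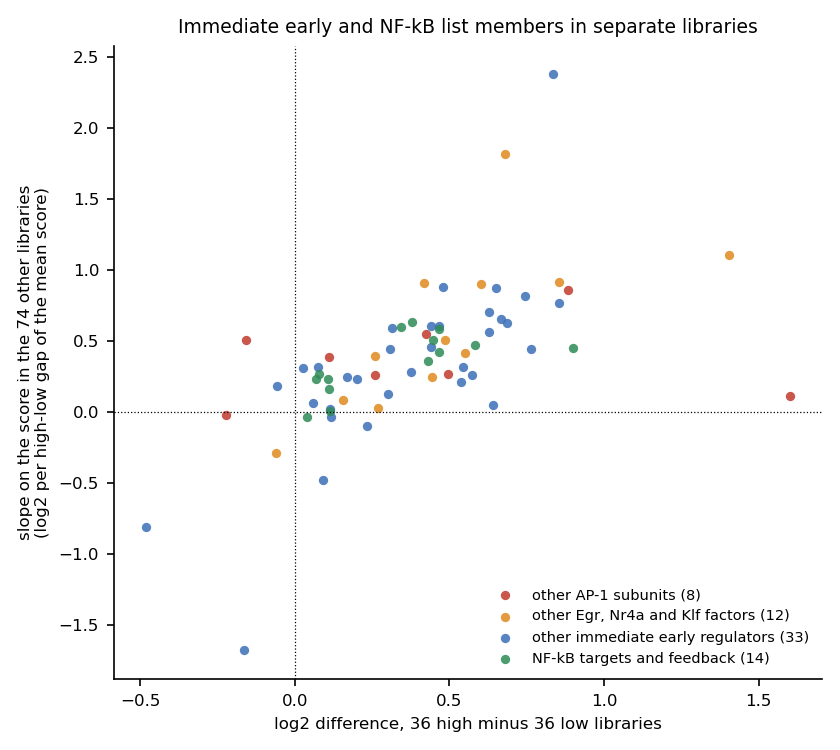
Fitted log2 difference of the tested members of 4 lists between the high and low libraries (x axis) against their slope on the score in the 74 other libraries (y axis, log2 per gap of the mean score). Most points lie above 0 on both axes, with 59 of 67 members having a positive slope, and no point passed the test of the slope with edgeR.

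On single plates the direction of the differences was mostly shared, for genes that the fit over these same plates had selected. Their signs are thus no separate evidence, and the share over all genes tested is not given here. Of the 145 genes named and past the threshold, most were named by the rule and a few after their values were seen. On the 6 plates that hold both groups, 90 of the 145 had the same sign on all 6, 39 on 5 and 16 on 4 or fewer. Zfp36, Maff, Csrnp1, Dusp5, Relb, Nfkbia, Cxcl2, Nr1d1, Cd14 and Itgax were higher and Mbnl3, Il1rl2, Mki67 and Tfrc lower in the high group on each of the 6. Without plate 2 and without plate 8 in turn, 84 of the 145 genes kept their calls.

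**Figure D5:**
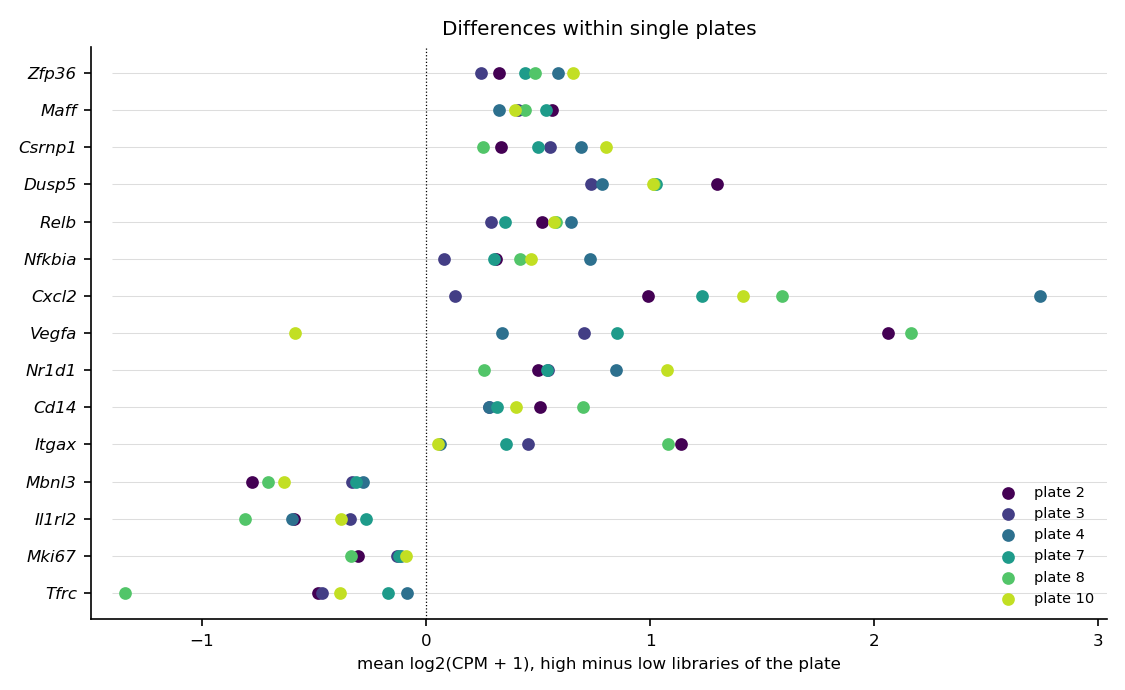
Difference of the mean log2(CPM + 1) between the high and low libraries of each of 6 plates for 15 genes outside the score, one point per plate. All points lie on 1 side of 0 for each gene except Vegfa, which was lower in the high libraries of plate 10.

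Differences were not shown to depend on the labelled sex. The interaction of group and sex passed for 0 of 13403 genes (0%) with edgeR and with limma voom, with 453 genes at an unadjusted p under 0.05 with edgeR and a smallest adjusted p of 0.684. Fitted by sex, after the data were seen, 1433 genes passed among the 42 libraries labelled female and 13 among the 30 labelled male, all 13 of them higher. The score genes, which chose the libraries, were not taken out of these counts. Of the named genes outside the score, 4 of 143 tested kept their calls in males. The log2 difference of Zfp36 was 0.47 in females and 0.49 in males, both past the threshold (adjusted p of 0.000685 and 0.00149). That of Dusp5 was 1.19 and 1.05, that of Relb 0.70 and 0.41 and that of Cxcl2 2.13 and 1.49, and these 3 did not pass in males (adjusted p of 0.0875, 0.053 and 0.08).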

How the data were processed

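Both deposited tables of 146 libraries were used. The first holds raw counts per gene: per the submitters' processing notes, reads were checked with FastQC, aligned with TopHat2 2.0.11 to GRCm38 (mm10) and counted with HTSeq 0.6.1. The second holds log2 values of 10893 genes that the authors derived from counts with the variance-stabilising transformation of DESeq2, used only for an alternative score. The annotation release and the strand setting of the counting are not given in the sources used here, so reads of overlapping or antisense genes cannot be told apart. The 13 mitochondrial genes had 0 counts in all libraries. GENCODE M21 named 21899 of 22721 identifiers, and 486 of 492 list symbols were matched.

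CPM used column sums. Groups were compared with edgeR 4.0.16 (R 4.3.3), TMM, filterByExpr and the quasi-likelihood test, with plate as covariate, on high and low libraries only, and p-values were adjusted by Benjamini-Hochberg over all genes tested. SE is the log2 difference divided by the root of F. The test was tried on simulated counts. Library properties used 100000 permutations within plates. Alternatives were limma 3.58.1 (voom), DESeq2 1.42.0, other size factors, filters, covariates and scores, groups of 24 or 48, the slope on the score, and leaving out each plate. Each mouse gave 1 library, so p-values measure the spread between mice and do not allow for likeness within a date. At these depths genes under about 0.1 CPM rest on a few reads a library.

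Members and lists were chosen with earlier results of these data known. Genes were named by a rule: up to 8 called members of each of the 5 immediate early, feedback and decay lists, up to 4 of each other list, and the 12 largest differences in each direction. Unnamed loci were skipped, and the first and last part asked for a log2 CPM averaging 1 or more. Values of other list members are given to describe their list, and were chosen after they were seen. A few genes outside the lists were also added after their values were seen, and they are among the 145 named genes. Genes sharing 20% or more of their 50-base stretches with other annotated genes are called uncertain. A few members of the lists are not reported here.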

Additional observations from a re-analysis of the deposited data

How the results depend on the processing

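The count of 3424 genes moved by over 1.5 times under 8 alternatives. It was 1796 without plate 2, 1352 without plate 8, 5434 for the slope over all libraries, 102 for the slope over the middle libraries, 5366 for the score without Fos and 2136 for the score without Junb. Fitted in libraries labelled female or male only, chosen after seeing the data, it was 1433 and 13, with fewer samples. The other alternatives gave 2485 (date in place of plate) to 4612 (lane within plate), and in these the share of higher genes ran from 48.4% to 58%. That share was 58.7% without plate 8, 23.5% for the slope over the middle libraries and 100% in males, with the score genes left in. The difference in the share of females was 0.03 and became -0.01464 with groups of 48 (adjusted p = 1). Among named genes, the sign turned in the middle libraries for Ier5 (-0.0996), Spry2 (0.0044), Rps6ka1 (0.0929), Rab39 (0.0379) and Mecom (-0.6443), and for Mecom also with lane within plate (-0.3083) and in females (-0.7704). The cause was not tested. Of 145 named genes, 145 kept their calls with DESeq2 and 133 with limma voom, 107 with date, 97 without plate 2 and 94 without plate 8. Dates and groups overlapped only in part, and 15 to 16 libraries leave with plate 2 or 8. No paired analysis was possible because each library came from its own mouse and replicate numbers follow accession order.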
